A study of Mus musculus with 4 samples.

Results

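Retinoic acid is the signalling form of vitamin A. Retinol dehydrogenases turn retinol into retinaldehyde, aldehyde dehydrogenases of the Aldh1a family turn retinaldehyde into retinoic acid, and Cyp26 enzymes break it down. Inside the nucleus it binds retinoic acid receptors (RARs), which pair with retinoid X receptors (RXRs) on DNA. In the embryo the balance of synthesis and breakdown sets where the trunk mesoderm receives the signal. The 10 genes described here are the enzymes and receptors of this system: Rdh10, Aldh1a1, Aldh1a2 and Aldh1a3 (synthesis), Dhrs3 (return of retinaldehyde to retinol), Cyp26a1 and Cyp26b1 (breakdown), and the receptor genes Rara, Rarb and Rarg. They were taken by name, and every array probe whose RefSeq accession leads to one of these symbols was used. That gave 12 of the 55681 probes on the array: 2 each for Rara and Rarb, and 1 for each other gene. In all, 13926 named genes were tested.

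The cells were EB5, a mouse embryonic stem (ES) cell line, with a Venus fluorescent reporter for the homeobox gene Hoxb6. They were differentiated for 6 days on OP9 cells, a stromal feeder line, and sorted with an antibody to Flk-1, a VEGF receptor whose gene is Kdr. Both groups were therefore Flk-1+ and came from reporter cells: Venus-negative cells (2 arrays) and Venus-positive cells (2 arrays). Whether replicates came from separate cultures, and whether the reporter line is 1 clone, is not given in the sources used here, so the p-values cover the spread among these arrays and that spread may be technical.

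All 4 single-colour arrays lay on 1 slide with 1 scan. Both Venus-negative arrays were in column 2 of the slide and both Venus-positive arrays in column 3, so column and fraction cannot be told apart. Between 50.7% and 53.0% of non-control spots were well above background and 0 were saturated. The number of arrays limits the precision. The sorting markers had log2 changes (Venus-positive minus Venus-negative) of 0.44 ± 0.11 SE for Kdr and 1.01 ± 0.16 for Hoxb6, with limma adjusted p-values of 0.138 and 0.0717.

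The promoters of 3 of these genes are shown as a description, and their part in the results was not tested. Cyp26a1 and Rarb are textbook targets of RAR through a direct repeat of the receptor half-site, and Aldh1a2 was the gene of the set that passed the test. Each sequence is the 250 bases before the listed transcript start, from the RefSeq table of build GRCm38.p6, read 5′ to 3′ on the gene's strand. Capitals mark the 2 half-sites of a direct repeat with 5 bases between them.

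Cyp26a1, chr19:37697558-37697807, plus strand: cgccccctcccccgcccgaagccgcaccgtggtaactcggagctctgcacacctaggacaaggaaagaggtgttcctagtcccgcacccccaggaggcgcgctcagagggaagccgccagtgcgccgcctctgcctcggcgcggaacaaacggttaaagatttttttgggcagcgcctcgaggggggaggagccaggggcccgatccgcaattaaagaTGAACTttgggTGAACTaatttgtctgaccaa
Rarb, chr14:16575477-16575726, minus strand: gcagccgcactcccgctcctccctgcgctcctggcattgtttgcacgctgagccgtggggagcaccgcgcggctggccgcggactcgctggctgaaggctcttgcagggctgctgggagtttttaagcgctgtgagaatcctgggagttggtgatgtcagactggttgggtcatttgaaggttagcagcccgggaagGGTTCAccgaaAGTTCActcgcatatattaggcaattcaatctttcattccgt
Aldh1a2, chr9:71215539-71215788, plus strand: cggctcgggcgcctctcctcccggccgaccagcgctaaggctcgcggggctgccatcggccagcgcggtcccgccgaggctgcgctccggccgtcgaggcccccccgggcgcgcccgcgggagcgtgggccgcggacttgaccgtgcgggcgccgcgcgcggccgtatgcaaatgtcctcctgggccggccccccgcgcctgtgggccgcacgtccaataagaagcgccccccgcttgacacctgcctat

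The half-site AGGTCA was searched, along with the variant AGTTCA, the further variant GGGTCA and the last variant GGTTCA, on both strands, as direct repeats with 1, 2 or 5 bases between them, in windows reaching from 250 bases before to 50 bases after a start. Of the 10 genes, 8 had a window in the table (Rdh10 and Aldh1a3 did not), with 15 windows in all. The repeat with 5 bases between half-sites was found in Cyp26a1, at 32 to 16 bases before the start and on the opposite strand, and in Rarb, at 53 to 37 bases before the start. It was present in 32 of all 32851 windows, or 0.0974%. None of the 8 genes had the repeats with 1 or 2 bases between half-sites, which were present in 0.222% and 0.268% of all windows. The Aldh1a2 window had no half-site of these letters on either strand, and the 250 bases printed for it have a GC content of 77.6%. A match is a description of the letters and does not show binding.

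Of the 10 genes, 1 passed the test: Aldh1a2 was called lower in Venus-positive cells, and 0 were called higher. Aldh1a2 is the main retinoic acid synthesizing enzyme of the early embryo's mesoderm. Cyp26a1, the enzyme that clears retinoic acid around the primitive streak and tail bud, had the largest difference, at 13.3-fold lower, but its replicates were spread and it missed the threshold. Dhrs3 and Rdh10, the enzyme pair that interconverts retinol and retinaldehyde, had values 2.21-fold and 2.74-fold higher in Venus-positive cells and also missed it. Values for the remaining 6 genes differed by 1.63-fold or less.

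The test was limma's on log2 processed signal, centred on each array's 75th percentile, with Benjamini-Hochberg adjustment over 23548 features and a threshold of 0.05. Over all features, 1.36% were called lower in Venus-positive cells and 0.777% higher. At an unadjusted p under 0.05, 2 of the 10 genes were lower (Aldh1a2 and Cyp26a1) and 2 higher (Dhrs3 and Rdh10), against 11.4% and 12.3% of all features. The 2 arrays of each fraction did not overlap for 2 genes lower and 3 genes higher in Venus-positive cells, against 28.4% and 29.1% of all features, so 5 of 10 is close to the background. The median log2 change of the 10 genes was 0.37, against 0.0029 over all features, and their median absolute log2 change was 0.66, against 0.23. For each of the 10 genes, the probe that represents it was well above background on all 4 arrays. With arrays centred on their median in place of the 75th percentile, 351 features were higher and 375 lower (51.7% of called features lower), against 183 and 320 (63.6%) in the fit used here.

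**Figure D1:**
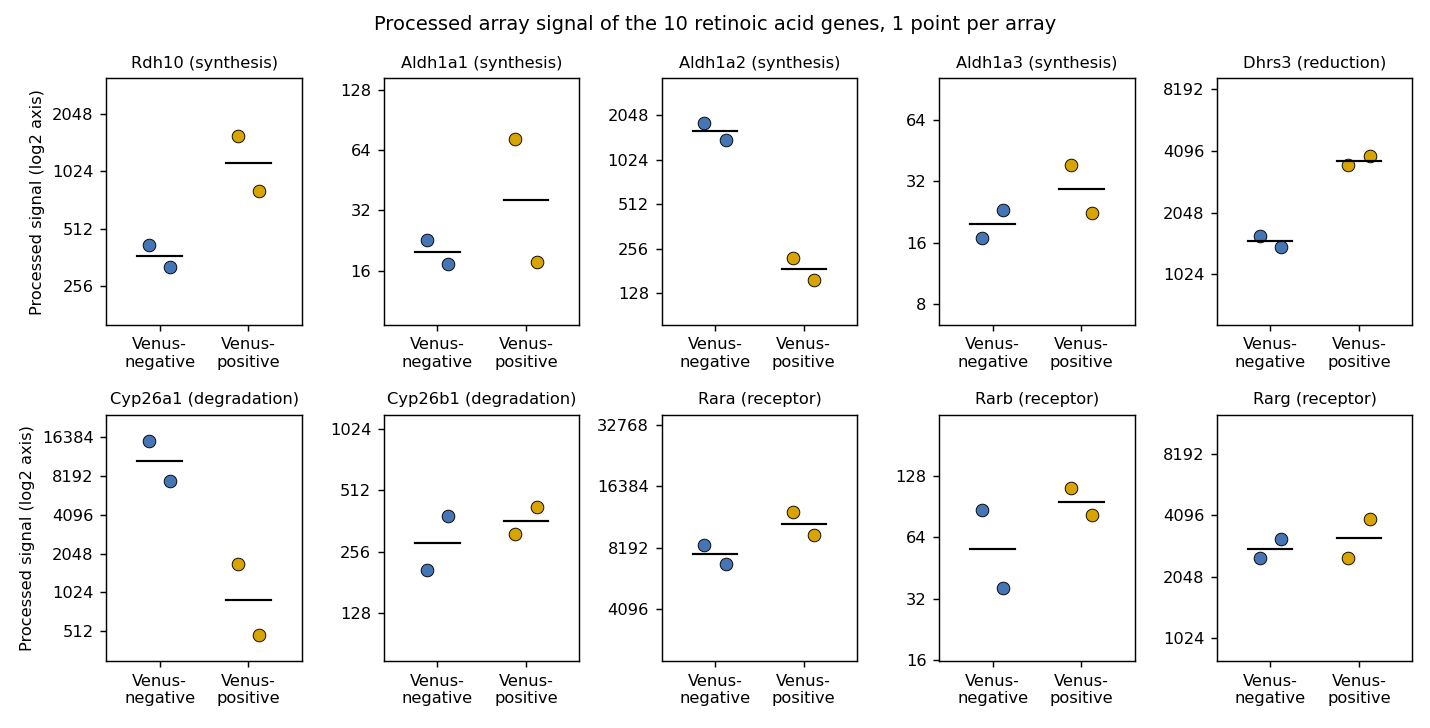
Processed signal (log2 axis, a separate scale for each gene) on the 2 Venus-negative and 2 Venus-positive arrays, with a bar at the geometric mean of each fraction. The groups lie apart for Rdh10, Aldh1a2, Dhrs3, Cyp26a1 and Rara, and overlap for the other 5 genes.

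Rdh10 carries out the first, rate-limiting oxidation of retinol to retinaldehyde. Its processed signal was 424 and 323 in Venus-negative cells, against 1573 and 813 in Venus-positive cells. Both Venus-positive arrays were higher than both Venus-negative arrays, but they differed from each other almost as much as the lower one differed from the Venus-negative pair. On the centred log2 scale the Venus-negative mean was -0.0034 ± 0.14 (SD, n = 2) and the Venus-positive mean 1.45 ± 0.60 (SD, n = 2). The log2 change was 1.46 ± 0.33 SE (95% interval 0.52 to 2.39), with a limma adjusted p of 0.119. Leaving out Venus-positive replicate 1 moved it to 1.03 and leaving out Venus-positive replicate 2 to 1.88.

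Aldh1a2 makes retinoic acid from retinaldehyde. Its processed signal was 1822 and 1402 in Venus-negative cells, against 220 and 157 in Venus-positive cells. The fractions lay far apart relative to the difference within either. On the centred log2 scale the Venus-negative mean was 2.11 ± 0.13 (SD, n = 2) and the Venus-positive mean -1.16 ± 0.27 (SD, n = 2). Aldh1a2 was thus 9.61-fold lower in Venus-positive cells, a log2 change of -3.26 ± 0.18 SE (95% interval -3.78 to -2.75; limma adjusted p = 0.0342). By absolute log2 change it ranked 68 among the 13926 named genes tested. The log2 change lay between -3.46 and -3.07 with 1 array left out. The call was lost each time, but so was that of every other called feature. The call was also lost with dim probes included (limma adjusted p = 0.143), where 0 of all features were called in either direction. Losing the call in these settings is therefore not particular to Aldh1a2.

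Aldh1a1 and Aldh1a3, the other enzymes of this step, known from the eye and other later tissues, gave dim signals. That of Aldh1a1 was 22.8 and 17.2 in Venus-negative cells, against 72.9 and 17.7 in Venus-positive cells. That of Aldh1a3 was 16.9 and 23.1 in Venus-negative cells, against 38.2 and 22.4 in Venus-positive cells. The lowest signal that counted as well above background on any probe was 11.1 to 14.7 per array, so both genes lay near that limit. In each, Venus-positive replicate 1 was the brightest array; for Aldh1a1 the other 3 lay together, and for Aldh1a3 they were spread. The log2 changes were 0.70 ± 0.71 SE for Aldh1a1 (limma adjusted p = 0.606) and 0.41 ± 0.35 for Aldh1a3 (0.537). Without Venus-positive replicate 1 that of Aldh1a1 turned to -0.27. The intervals (-1.32 to 2.72 and -0.58 to 1.39) lie above that of Aldh1a2; the difference between these genes was not tested.

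Dhrs3 reduces retinaldehyde back to retinol and so works against synthesis; it is itself known to be induced by retinoic acid. Its processed signal was 1582 and 1394 in Venus-negative cells, against 3484 and 3854 in Venus-positive cells. The replicates lay close together and the fractions apart. On the centred log2 scale the Venus-negative mean was 2.00 ± 0.0044 (SD, n = 2) and the Venus-positive mean 3.15 ± 0.18 (SD, n = 2). The log2 change of 1.15 ± 0.13 SE (95% interval 0.77 to 1.52) had a limma adjusted p of 0.0512, just above the threshold. Across alternative settings with all 4 arrays the limma adjusted p ranged from 0.0141 to 0.167. Dhrs3 passed with arrays centred on their median (0.0480), with model-based background correction (normexp, 0.0160) and with only probes well above background on all arrays (0.0439). It also passed with a signal-dependent variance prior (0.0141) and with each probe tested on its own (0.0483), an alternative chosen after seeing the data. Normexp and the variance prior also raised the calls over all features. Dhrs3 did not pass with quantile normalization (0.0559), the mean of a gene's probes (0.0511), the replicate number as a block (0.0510) or dim probes kept (0.167).

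Cyp26a1 is the cytochrome P450 that breaks down retinoic acid in the gastrulating embryo, and retinoic acid is known to induce it. Its processed signal was 15229 and 7540 in Venus-negative cells, against 1695 and 477 in Venus-positive cells. Each Venus-positive array was well below each Venus-negative array, although the replicates of both fractions were spread. On the centred log2 scale the Venus-negative mean was 4.85 ± 0.58 (SD, n = 2) and the Venus-positive mean 1.12 ± 1.22 (SD, n = 2). The log2 change was -3.73 ± 0.70 SE (95% interval -5.72 to -1.75; limma adjusted p = 0.0943). It was -4.59 without Venus-positive replicate 1, and -2.87 when replicate 2 of that fraction was left out, or 24.1-fold and 7.32-fold lower. With all 4 arrays the adjusted p ranged from 0.0389 to 0.238 over the alternatives, and the settings under which it passed include normexp (0.0429) and a signal-dependent variance prior (0.0389).

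The paralog Cyp26b1, known from the hindbrain, limb and gonad, did not show this pattern. Its processed signal was 209 and 384 in Venus-negative cells, against 311 and 425 in Venus-positive cells, and the groups overlapped. The log2 change was 0.20 ± 0.45 SE (95% interval -1.06 to 1.47; limma adjusted p = 0.818), and it turned to -0.33 without Venus-negative replicate 1 and to -0.075 without Venus-positive replicate 2. The intervals of both Cyp26 genes do not overlap; the difference between them was not tested.

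**Figure D2:**
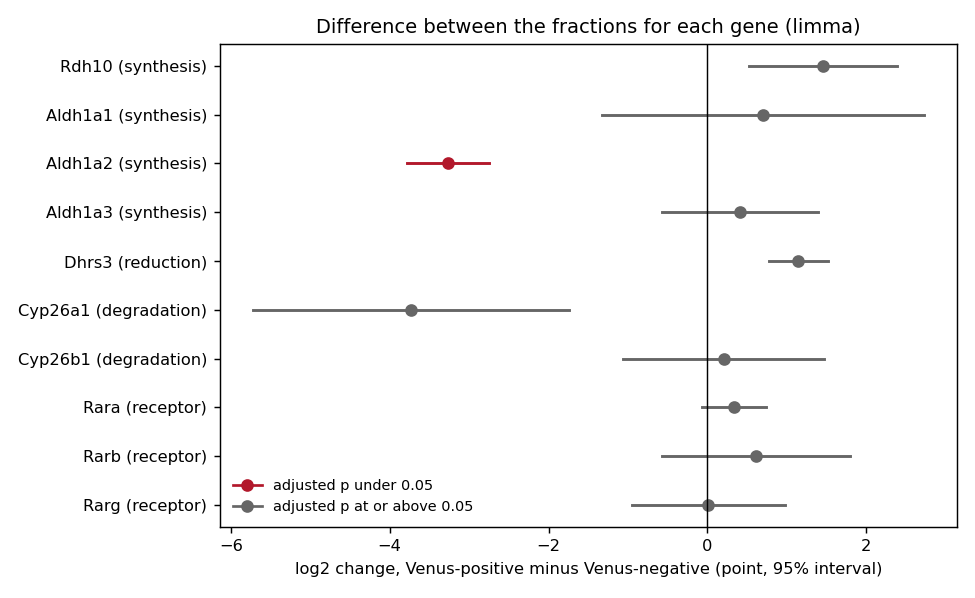
log2 change between the fractions for the 10 genes with its 95% interval from limma. Red marks Aldh1a2, with an adjusted p under 0.05 (-3.26); Cyp26a1 lies lower still, at -3.73, with an interval from -5.72 to -1.75, and the intervals of Rdh10 and Dhrs3 lie above 0.

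None of the 3 receptor genes passed the limma test, and 0 had an unadjusted p under 0.05. Rara, the broadly expressed receptor, had 2 probes. On the brighter, which represents the gene, the processed signal was 8484 and 6819 in Venus-negative cells, against 12203 and 9426 in Venus-positive cells. Both Venus-positive arrays were higher, by a small margin. The log2 change was 0.34 ± 0.14 SE (95% interval -0.063 to 0.74; limma adjusted p = 0.264). On the other Rara probe the signal was 1468 and 1192 in Venus-negative and 1564 and 1501 in Venus-positive cells, the groups overlapped once centred, and the log2 change was 0.05 ± 0.10 SE (adjusted p = 0.789, each probe tested on its own).

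Rarb, the receptor gene whose promoter holds the repeat printed above, was dim. On its brighter probe the processed signal was 86.8 and 36.1 in Venus-negative cells, against 111 and 82.1 in Venus-positive cells. The Venus-negative replicate 2 array stood apart as the lowest and the other 3 lay together. The log2 change was 0.61 ± 0.42 SE (95% interval -0.58 to 1.80; limma adjusted p = 0.448), moving to 0.073 without Venus-negative replicate 2 and to 1.15 without Venus-negative replicate 1. The second Rarb probe exceeded background clearly on only 1 of the 2 Venus-negative arrays. Its signal was 23.6 and 12.7 in Venus-negative and 27.3 and 25.1 in Venus-positive cells, a log2 change of 0.44 ± 0.27 SE (adjusted p = 0.401, each probe tested on its own). Of the 2 genes with the repeat, Cyp26a1 and Rarb, neither passed. The interval of Rarb includes 0, so its direction was not settled. The part of the repeat in these values was not tested.

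Rarg, a receptor of the streak and presomitic mesoderm, had a processed signal of 2529 and 3130 in Venus-negative cells, against 2531 and 3942 in Venus-positive cells. The groups overlapped almost fully. The log2 change was 0.0095 ± 0.34 SE (95% interval -0.95 to 0.97; limma adjusted p = 0.991), and its sign turned with 1 array left out.

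The rest of the pathway is reported on 54 genes, of which 42 were tested and 12 were too dim. Of these 42, 0 were called in limma in either direction, against 0.777% of all features called higher and 1.36% lower. At an unadjusted p under 0.05 in limma, 9 were lower and 8 higher, both larger shares than the 11.4% and 12.3% of all features. Their median log2 change was -0.076. Their median absolute log2 change, 0.33, was smaller than that of the 10 enzymes and receptors and larger than the 0.23 of all features.

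Of 6 genes reported for retinol uptake, storage and carriage, 0 were called in limma (0 higher and 2 lower at an unadjusted p under 0.05), and the median log2 change was -0.44. Crabp1, a carrier of retinoic acid in the cytoplasm, stood at -1.40 ± 0.30 SE (adjusted p = 0.112). Fabp5, a fatty acid-binding protein that can also carry retinoic acid, stood at -0.82 ± 0.11 (adjusted p = 0.0604).

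Of 10 tested further retinoid dehydrogenases and reductases 0 were called in limma (1 higher and 2 lower at an unadjusted p under 0.05), with a median log2 change of -0.092. The largest values were -0.67 ± 0.13 SE for Rdh11, a retinaldehyde reductase (adjusted p = 0.0961), and 0.59 ± 0.39 for Adh1, an alcohol dehydrogenase (adjusted p = 0.436). Cyp26c1, the third Cyp26 enzyme, was not well above background on any array.

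Of the 3 RXR genes, the receptors' partners on DNA, 0 were called in limma on the representing probe (1 lower at an unadjusted p under 0.05). Rxra stood at 0.32 ± 0.19 SE (adjusted p = 0.384) and Rxrg at -0.46 ± 0.13 (adjusted p = 0.156). The representing Rxra probe was dim, at 29.5 and 34.7 in Venus-negative and 48.4 and 40.8 in Venus-positive cells. On the other Rxra probe the groups overlapped and the log2 change was -0.017 ± 0.23 SE (limma adjusted p = 0.974, each probe tested on its own). The 2 probes of Rxrg disagreed, a point noticed after the data were seen. The representing probe had a processed signal of 1467 and 1080 in Venus-negative and 1046 and 989 in Venus-positive cells. The other had 1338 and 656 in Venus-negative but 62.4 and 24.4 in Venus-positive cells, a log2 change of -4.74 ± 0.55 SE (adjusted p = 0.0493, each probe tested on its own). Both probes carry the same RefSeq accession, so a single value for Rxrg cannot be given. Of 8 coregulators 0 were called in limma (2 higher and 0 lower at an unadjusted p under 0.05); the largest values were 0.37 ± 0.11 SE for Nrip1, a corepressor (adjusted p = 0.167), and 0.34 ± 0.09 for Ncoa3, a coactivator (adjusted p = 0.151).

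Of 15 genes reported that are known to respond to retinoic acid, 0 were called in limma, with 5 higher and 4 lower at an unadjusted p under 0.05 and a median log2 change of -0.28. The group spread both ways. Ripply3, a transcriptional repressor of the pharyngeal region, stood at 1.78 ± 0.24 SE (adjusted p = 0.0618). Fgf8, a growth factor of the streak and tail bud that retinoic acid is also known to repress, stood at -3.03 ± 0.41 (adjusted p = 0.0615).

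**Figure D3:**
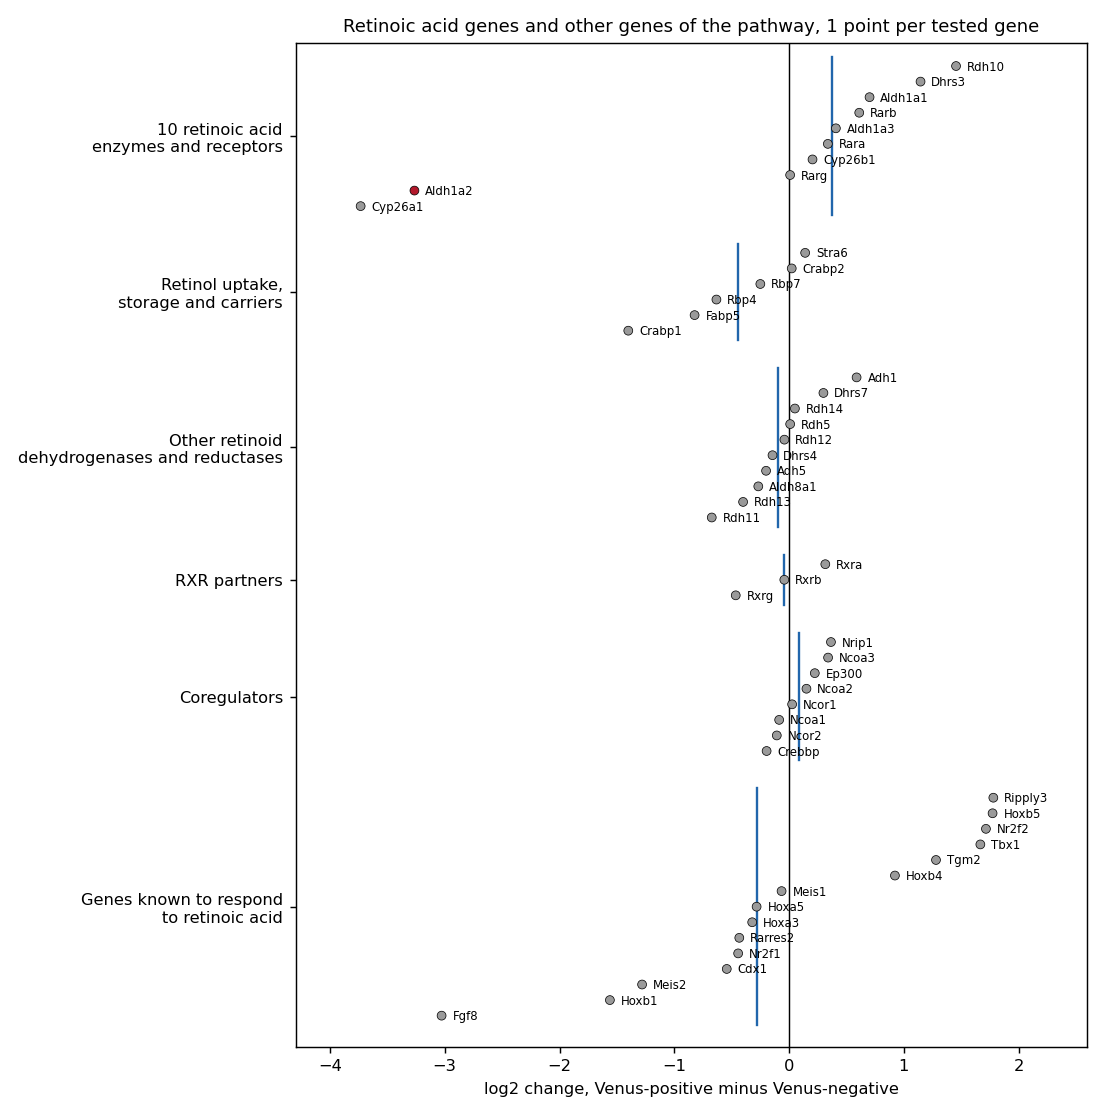
log2 change between the fractions for the 10 enzymes and receptors (top) and the 42 other pathway genes reported in 5 lists, 1 point per gene on its representing probe, with the median of each group as a blue line. Red marks the called gene, Aldh1a2; the genes known to respond to retinoic acid range from Fgf8 at -3.03 to Ripply3 at 1.78.

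The 3 named genes whose profile over the 4 arrays came closest to that of Cyp26a1 were sought among 12743 genes well above background on all 4 arrays, by the root mean square difference of log2 profiles each centred on its own mean. They were Otx2, a homeobox gene of the anterior embryo (difference 0.34, log2 change -3.41), Phox2a, known from autonomic neurons (0.42, -4.42), and Nodal, the signalling protein that patterns the streak (0.42, -3.59). With 4 arrays this mostly ranks the size of the difference between the fractions.

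Markers of several cell types differed between the fractions along with these genes. In a sorted bulk sample, fewer cells of a type and less RNA per cell cannot be told apart. Of 6 primitive streak markers, 5 were called lower in limma (0 higher and 6 lower at an unadjusted p under 0.05). Their summed signal, relative to each array's 75th percentile, was 42.9 and 36.8 in Venus-negative and 14.0 and 10.2 in Venus-positive cells. In Venus-positive cells most of that sum was the gene T, the marker not called (log2 change -0.73 ± 0.25 SE, limma adjusted p = 0.202). The 5 called markers were lower by 17.8-fold (Wnt3) to 74.4-fold (Mesp1, near background in Venus-positive cells). Of 8 endothelial markers, 3 were called higher in limma (8 higher and 0 lower at an unadjusted p under 0.05). The summed signal was 185 and 233 in Venus-negative and 386 and 471 in Venus-positive cells. Of 12 stromal and fibroblast markers for the OP9 feeders, 11 were tested and 0 were called in limma (0 higher and 2 lower at an unadjusted p under 0.05); the summed signal was 77.6 and 71.0 in Venus-negative and 64.8 and 46.3 in Venus-positive cells, and the defining marker Dcn was too dim to be tested. The 6 paraxial mesoderm markers summed to 14.2 and 12.9 in Venus-negative and 4.02 and 3.75 in Venus-positive cells, with 1 of 5 tested called lower (Msgn1). In Venus-negative cells most of that sum was Tbx6, a T-box factor of presomitic mesoderm. The processed signal of Tbx6 was 4635 and 3404 in Venus-negative cells, against 897 and 381 in Venus-positive cells. The median log2 change of the 5 was only -0.20, and Pax3, a paired-box factor of the somite, stood at 0.94 ± 0.33 SE (limma adjusted p = 0.209). The link between these markers and the values of Aldh1a2, Cyp26a1, Dhrs3 and Rdh10 was not tested.

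**Figure D4:**
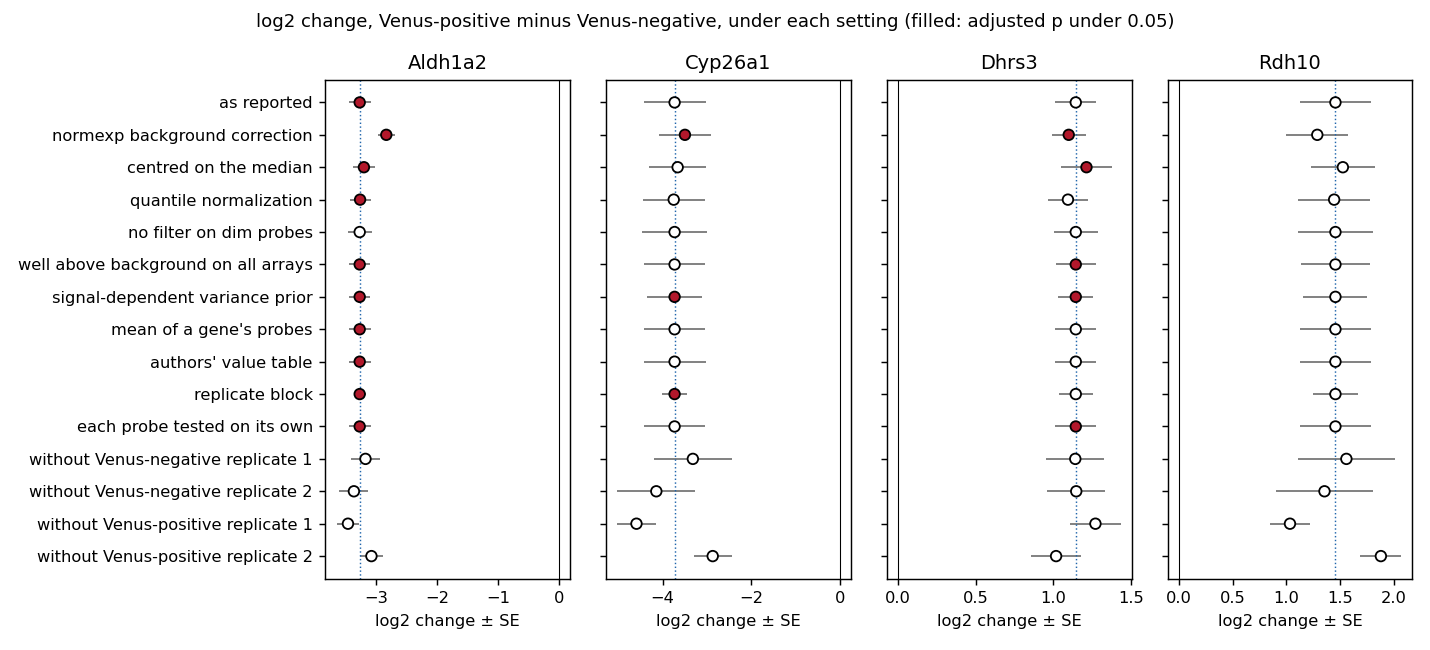
log2 change ± SE of Aldh1a2, Cyp26a1, Dhrs3 and Rdh10 under each processing setting and with each array left out; filled points have an adjusted p under 0.05 and the dotted line is the reported value. The directions of all 4 genes hold in every setting shown, but the calls do not. Among settings with all 4 arrays, only normexp, median centring and quantile normalization move the points. Points are unfilled in the 4 settings that leave out an array, as calls were lost there for every feature.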

How the data were processed

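Per the file headers, the deposited scanner tables come from Agilent Feature Extraction, version 10.10.1.1. They give the intensity of 62976 spots per array, background-subtracted and detrended, with no scaling between arrays. The deposited value table holds an intensity that equals this signal times 1 constant per array (1.98 to 2.44; medians 41.0, 42.3, 41.0 and 38.1); the basis of the constants is not given in the sources used here. Well-above-background, outlier and saturation flags are other deposited columns, per the file headers.

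Control and outlier spots were left out, log2 signals centred on each array's 75th percentile, and spots of a probe averaged. A probe was kept if both arrays of either fraction had it well above background (27899 probes). Accessions were matched to RefSeq symbols (21465 of 37881), and the brightest probe represented a gene: 13926 genes and 9622 unnamed probes. limma 3.58.1 in R 4.3.3 (2 residual and 1.80 prior degrees of freedom) compared the fractions; the fit was tested on simulated data. normexp used the median spot signal and an offset of 50, since the tables used here hold no mean spot signal.

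The genes, lists and rules were chosen with earlier results of these data known. All 10 genes are named; of each pathway list, called genes and the 2 with the largest change; of markers, those that move with a result. Marker lists for blood, endoderm, neural and pluripotent cells are given in the closing section. The alternative with each probe on its own was chosen after seeing the data. Some genes of the pathway lists are not reported here, and the lists' counts and medians leave them out.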

Additional observations from a re-analysis of the deposited data

How the results depend on the processing

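The 10 genes kept their direction under the 10 alternatives with all 4 arrays, except Rarg, which turned to -0.032 with quantile normalization. Only normexp, median centring and quantile normalization changed the log2 change of every gene. Taking the mean of a gene's probes changed it for Rara and Rarb alone. The remaining alternatives left the log2 changes as they were and so could not test direction. The counts moved more. Features called higher and lower were 593 and 695 with normexp, 351 and 375 with median centring, 731 and 923 with a signal-dependent variance prior, and 0 and 0 when dim probes were kept (2899 and 3641 at an unadjusted p under 0.05 in limma). Of the 10 genes, 1 was called higher with normexp, median centring, only probes bright on all arrays, the variance prior or each probe on its own (Dhrs3 each time), and 2 were called lower with normexp or the variance prior (Aldh1a2 and Cyp26a1). With dim probes kept, 0 were called lower. The log2 change of Aldh1a2 was smallest with normexp (-2.83), whose offset compresses dim signals. Without 1 array, 0 features and 0 of the 10 genes were called either way (1687 to 2510 features higher and 1720 to 2161 lower at an unadjusted p under 0.05); the lone array of a fraction is then assumed to vary like the other fraction. In those fits Aldh1a1 ranged from -0.27 to 1.67, Cyp26b1 from -0.33 to 0.74 and Rarg from -0.36 to 0.38. The authors' value table gave the same calls and values, which was fixed in advance. It is the same signal times 1 constant per array, and the centring removes that constant.

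With the replicate number, which is also the row on the slide, as a replicate block, 390 features were higher and 544 lower, and 2 of the 10 genes were called lower, Aldh1a2 (limma adjusted p = 0.0429) and Cyp26a1 (0.0460). Same-numbered arrays deviated together across features (r = 0.414), but nothing states that numbers pair the samples. Signals near 11 to 15 limit what Aldh1a1, Aldh1a3 and the second Rarb probe can show. The brighter Rarb probe lay above that limit but was dim as well, with spread Venus-negative replicates (86.8 and 36.1).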

Other observations

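Other marker lists gave few calls. Of 6 tested blood markers 0 were called in limma (0 higher and 1 lower at an unadjusted p under 0.05), with a median log2 change of -0.42. Of 4 tested endoderm markers 0 were called in limma (1 higher and 3 lower at an unadjusted p under 0.05). Their median log2 change was -0.67, while the summed signal of all 6 listed markers, relative to each array's 75th percentile, went the other way: 3.54 and 4.49 in Venus-negative and 7.45 and 9.54 in Venus-positive cells. Most of that sum was Sox17, a factor of endoderm that endothelium also expresses, with a log2 change of 1.35 ± 0.24 SE (limma adjusted p = 0.0872); the other 3 tested markers were the lower ones. Of 4 tested neural markers, Tubb3, a neuronal tubulin, was called lower (log2 change -2.61 ± 0.27 SE, limma adjusted p = 0.0463), while Nes, an intermediate filament of neural progenitors, stood at 0.89 ± 0.18 (adjusted p = 0.105). At an unadjusted p under 0.05, 1 neural marker was higher and 1 lower, and the median was -0.22. The summed signal of the 5 listed neural markers was 6.15 and 6.38 in Venus-negative and 7.68 and 9.59 in Venus-positive cells. Most of that sum was Nes in both fractions. Of 5 tested pluripotency markers 0 were called in limma (0 higher and 1 lower at an unadjusted p under 0.05), with a median of -0.32. The lower one was Pou5f1, with a log2 change of -2.38 ± 0.34 SE (limma adjusted p = 0.0663), while 2 of the 5 had a positive log2 change.

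The Rxrg probes differed most from each other. One had a 26.8-fold lower and the other a 1.38-fold lower value in Venus-positive cells, on the same accession. Which transcripts each probe reads was not tested.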
